A study of Mus musculus with 8 samples.

Results

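The first intron is the stretch between the first and the second exon of a transcript, and in protein-coding genes it begins shortly downstream of the transcription start site (TSS). DNA methylation of first introns was measured by reduced representation bisulfite sequencing (RRBS) in cells isolated as type A spermatogonia, the earliest mitotic germ cells of the postnatal testis. A cytosine was taken as a member when it lay on an autosome, in the first intron of a curated RefSeq mRNA, outside every exon and outside the promoter, from 1 kb upstream to 100 bases downstream of any TSS. By this rule 291813 of 2130064 cytosines (13.7%) were members, in 11843 introns of 10644 genes, with a median of 16 cytosines per gene. Of the members, 10.5% also lay in a later intron of another mRNA of the annotation. The rule used the annotation only and no methylation value. Of the members, 99.98% were followed by G in the genome sequence, so that they are CpG sites. The set for comparison was the 413139 cytosines in later introns of the same annotation, also outside exons and promoters. The control group was 4 samples from C3H/HeN F1 males whose dams drank tap water throughout gestation, and the arsenic group was 4 samples from F1 males of the same strain whose dams were given sodium arsenite at 85 ppm in tap water between gestational days 8 and 18. Testes were taken at postnatal day 6, 8 testes of 4 mice were pooled for each sample, and cells carrying CD49f (Itga6) were collected with magnetic beads. A value is therefore an average over 4 mice and over all cells that the beads retained, and whether pools shared litters is not given in the sources used here.

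In mammals a CpG-rich sequence around the TSS is usually free of methylation, whereas the body of a transcribed gene is usually methylated. The first intron spans the passage between the 2 states, and it often holds enhancers and other regulatory elements that the first exon is too short to hold. Male germ cells of the mouse regain their methylation before birth, after the erasure that takes place in primordial germ cells, so that type A spermatogonia carry a largely completed pattern.

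Reads on member cytosines numbered 12201536 to 17031986 per pool, with a median coverage of 31 to 43 reads. RRBS reads fragments between MspI sites, so CpG-rich stretches are over-represented and the members are not an even sample of first introns. Even counts were more frequent than odd ones in the table, and the cause was not tested. Were reads counted in pairs, the number of independent molecules would be lower than these coverages. The label of the cells was checked at 2 lists of promoters that male germ cells keep free of methylation. Maternally imprinted promoters, methylated on 1 allele in somatic cells, had a mean level of 53.4% (11 of 14 covered, 50.72% to 57.28% among the pools), and promoters of germline genes, methylated on both alleles in somatic cells, had a mean level of 84.1% (11 of 12 covered, 81.89% to 86.16%). The median of 12638 promoters was 1.84%. These values go against germ cells as the bulk of the DNA, in all 8 pools, and the levels below are called those of the CD49f-isolated cells. The share of each cell type was not measured, and its part in any difference below was not tested.

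The sequences below, from the RefSeq genome sequence of build GRCm38, show what methylated and unmethylated stretches of first introns look like where they depart from the usual order. Each is a window of 240 bases written 5′ to 3′ on the strand of the gene, in lower case, with capitals at the CpGs where at least 1 cytosine was read. The first windows are methylated stretches close to the TSS in genes of spermatogonia, chosen after their values were seen. That of Stra8, a gene that retinoic acid switches on before meiosis, is chr6:34921176-34921415 (plus strand), with a mean level of 88.1% over 26 cytosines and 8 pools. That of Sohlh2, a helix-loop-helix factor of spermatogonia, is chr3:55182408-55182647 (plus strand), with 90.9% over 20 cytosines. Both lie within 1 kb of the TSS, and each holds 14 CpGs.
Stra8 near: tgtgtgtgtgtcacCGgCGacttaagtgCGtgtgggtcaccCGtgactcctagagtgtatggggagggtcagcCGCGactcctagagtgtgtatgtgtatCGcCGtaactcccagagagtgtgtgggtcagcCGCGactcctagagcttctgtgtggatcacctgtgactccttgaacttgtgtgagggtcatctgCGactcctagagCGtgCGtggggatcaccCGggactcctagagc
Sohlh2 near: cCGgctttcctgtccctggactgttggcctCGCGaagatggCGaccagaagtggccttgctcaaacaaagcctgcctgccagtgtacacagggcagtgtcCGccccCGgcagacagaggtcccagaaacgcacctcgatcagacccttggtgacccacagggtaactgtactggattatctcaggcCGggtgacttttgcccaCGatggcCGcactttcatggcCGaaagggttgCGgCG

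The other windows show distant stretches of low methylation. That of Agap3, an Arf GTPase-activating protein, is chr5:24474671-24474910 (plus strand, more than 22 kb into the gene), with a mean level of 0.850% over 24 cytosines. That of Urad, an enzyme of uric acid breakdown, is chr5:147315572-147315811 (minus strand, 6631 to 6865 bases from the TSS), with 1.25% over 19 cytosines. That of Onecut3, a homeobox transcription factor, is chr10:80503545-80503784 (plus strand, 8640 to 8877 bases), with 3.06% over 32 cytosines (1.26% to 5.25% among the pools). It belongs to a longer stretch in which the arsenic pools were lower without passing the adjustment, described further on. In the window itself the groups overlapped, with 5.25%, 4.12%, 1.66% and 4.81% in the control pools and 2.28%, 1.26%, 2.87% and 2.27% in the arsenic pools.
Agap3 distant: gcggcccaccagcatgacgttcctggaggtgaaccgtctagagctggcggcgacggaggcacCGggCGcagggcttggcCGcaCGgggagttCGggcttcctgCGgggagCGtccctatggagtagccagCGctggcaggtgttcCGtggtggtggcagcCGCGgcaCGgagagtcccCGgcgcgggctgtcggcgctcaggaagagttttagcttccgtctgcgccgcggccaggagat
Urad distant: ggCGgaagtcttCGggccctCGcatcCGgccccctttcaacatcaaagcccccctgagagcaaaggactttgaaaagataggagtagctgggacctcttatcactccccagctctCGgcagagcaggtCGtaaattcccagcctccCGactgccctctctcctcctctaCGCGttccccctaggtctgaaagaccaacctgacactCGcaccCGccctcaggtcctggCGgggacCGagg
Onecut3 distant: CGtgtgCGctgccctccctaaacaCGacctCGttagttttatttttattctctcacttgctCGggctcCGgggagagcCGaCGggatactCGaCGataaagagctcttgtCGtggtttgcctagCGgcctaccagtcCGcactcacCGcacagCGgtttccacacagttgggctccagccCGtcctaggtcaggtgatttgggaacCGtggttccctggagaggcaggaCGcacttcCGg

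The methylation level of first introns depended strongly on the distance from the TSS. The level of a cytosine is the percentage of its reads that kept the C, and the level of a stretch is the mean over its cytosines. In the control group it was 4.96% ± 0.130 (SD, n = 4) at 0.1 to 0.5 kb and 7.69% ± 0.105 at 0.5 to 1 kb. It was 26.2% ± 0.0700 at 1 to 2 kb, 55.5% ± 0.222 at 2 to 5 kb and 66.8% ± 0.165 at 5 to 10 kb. Beyond 10 kb the level changed little, with 69.3% ± 0.207 at 10 to 20 kb, 69.7% ± 0.157 at 20 to 50 kb and 70.8% ± 0.152 over 50 kb. At 0.1 to 0.5 kb 87.3% of the cytosines had a mean level under 5% and 3.26% one of 20 to 80%, and at 2 to 5 kb 16.6% were under 5%, 31.7% at 20 to 80% and 31.7% at 80 to 95%. Cytosines of 20 to 80% remained 34.7% of the members at 10 to 20 kb. The level passed the midpoint between 0 and its value over 10 kb 1700 bases from the TSS in control pool 3 and 1600 bases from it in the other pools, with distances read in steps of 100 bases.

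**Figure D1:**
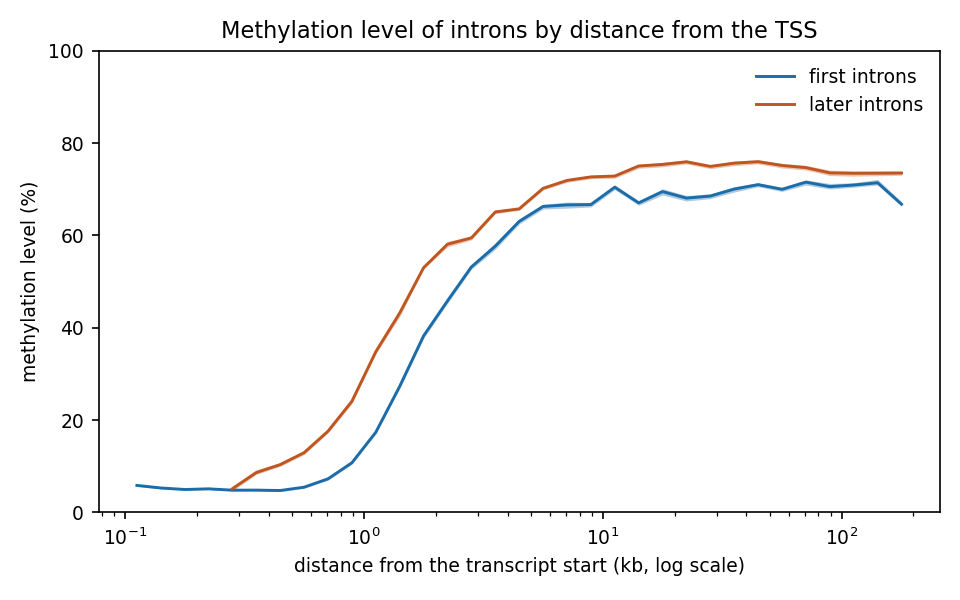
Mean methylation level (%) of first introns (blue) and later introns (orange) against distance from the TSS (kb, log scale), in bins with at least 100 cytosines; lines are the mean of the 8 pools and bands, mostly thinner than the lines, run from the lowest to the highest pool. First introns stay near 5% up to 0.5 kb, rise between 1 and 5 kb and stay below later introns beyond.

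First introns were less methylated than later introns at the same distance from the TSS. The difference, taken within each pool, was -4.18 points ± 0.166 (SD, n = 8) at 0.1 to 0.5 kb, -11.3 ± 0.101 at 0.5 to 1 kb and -19.2 ± 0.204 at 1 to 2 kb. From 2 to 5 kb it was -7.88 ± 0.148, and over 50 kb it was still -3.42 ± 0.0646. Every pool had the lower level in first introns in each of the 8 bins (exact sign-flip permutation test, two-sided, adjusted p = 0.00781 in each bin, the smallest that 8 pools can give). With later introns weighted to the distances of first introns, the levels were 39.76% and 47.44%, a difference of -7.67 points ± 0.0665. All pools were read at the same cytosines, so the p covers the spread between pools and not the choice of genes. Later introns passed the same midpoint of their own level at 1100 bases in all 8 pools. Few cytosines of later introns lie close to a TSS (2.92% within 2 kb, against 47.4% in first introns), and the median distances were 45.5 kb and 2.56 kb.

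CpG density differed between both kinds of intron, so the comparison was repeated at equal density. The number of CpGs in the surrounding 200 bases was used, in classes of under 5, 5 to 9 and at least 10. First introns were lower in all 24 pairs of distance and density (exact sign-flip permutation test, p = 0.00781 in each). At 1 to 2 kb the difference was -15.5 points ± 0.356 (SD, n = 8) with under 5 CpGs, -19.8 ± 0.195 with 5 to 9 and -8.88 ± 0.507 with at least 10. In the densest class the levels themselves were low close to the TSS, at 1.95% and 2.31% for 0.1 to 0.5 kb, and the difference there was -0.358 ± 0.219. At 5 to 10 kb the densest class had 34.1% in first and 44.1% in later introns.

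**Figure D2:**
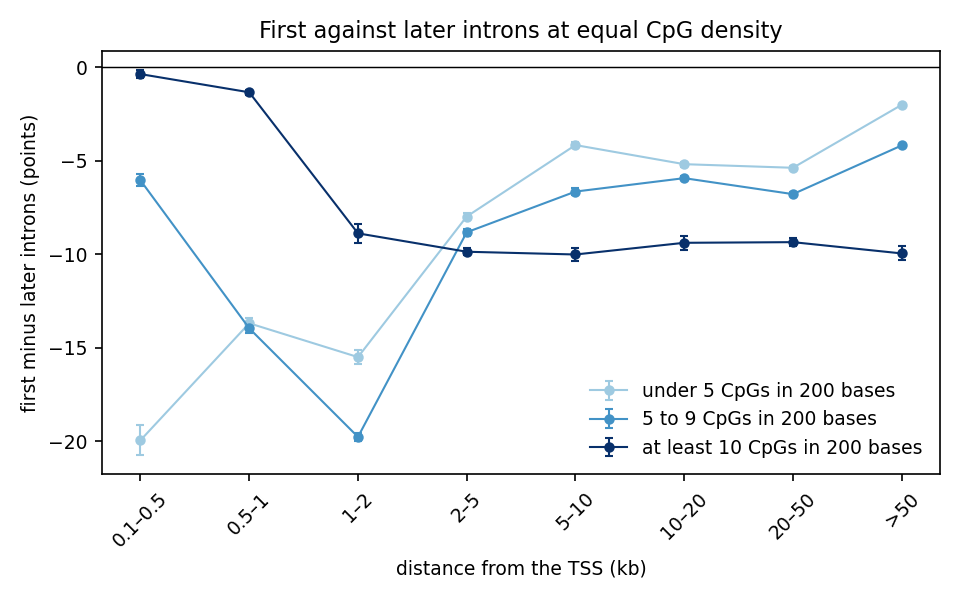
Level of first introns minus level of later introns (percentage points) by distance from the TSS (kb) in 3 classes of CpG density; points are means of the 8 pools and bars are SD. All points lie below 0, from -0.358 in the densest class at 0.1 to 0.5 kb to -20.0 in the sparsest class at 0.1 to 0.5 kb.

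At equal distance from the TSS the level also differed with position relative to the end of exon 1. Among cytosines 1 to 2 kb from the TSS, 3379 that lay within 500 bases of the splice donor had a level of 7.20%, and 25339 farther into the intron had 28.6%, a difference of -21.4 points ± 0.191 (SD, n = 8; exact sign-flip permutation test, p = 0.00781). At 2 to 5 kb the levels were 18.5% over 172 cytosines and 55.4% over 28921. The stretches near the donor were denser, with a median of 9 against 6 CpGs in 200 bases at 1 to 2 kb and 7 against 5 at 2 to 5 kb, and the part of density in this difference was not tested. At the other end of the intron the contrast was smaller and not of one direction. Within 500 bases of the splice acceptor the level was 33.1% against 25.3% elsewhere at 1 to 2 kb, and 61.8% against 66.8% at 5 to 10 kb. Intron length also went with the level at a fixed distance. At 1 to 2 kb the control level was 14.2% ± 0.211 (SD, n = 4) in introns under 1 kb, 31.6% ± 0.0705 at 1 to 3 kb and 32.7% ± 0.101 at 3 to 10 kb. It was then 24.6% ± 0.119 at 10 to 50 kb and 12.0% ± 0.0937 over 50 kb, so that the longest first introns were the least methylated at this distance.

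Gene by gene, the rise was the rule. Of 1639 genes with at least 5 cytosines at 0.1 to 1 kb and 5 over 5 kb, 1591 had the higher level in the distant part, with a median rise of 69.4 points, and 22 fell by at least 10 points. A gene with several TSSs can have its near and distant cytosines counted from different ones. The 4 genes with the largest rise were Tbc1d20, a Rab GTPase-activating protein, Katna1, Mfsd13a and Zbtb1. Tbc1d20 went from 0.900% to 97.2% in the mean of the 8 pools, Katna1, the catalytic subunit of the microtubule-severing enzyme katanin, from 0.502% to 96.2%, and Mfsd13a, of the major facilitator transporter family, from 1.93% to 97.6%. Zbtb1, a zinc finger protein of lymphocyte development, went from 0.421% to 95.5%, and all 8 of its near cytosines lie in an exon or promoter of a predicted transcript, which the curated annotation does not hold. The ranges of the pools did not come close to each other in any of the 4 genes.

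**Figure D3:**
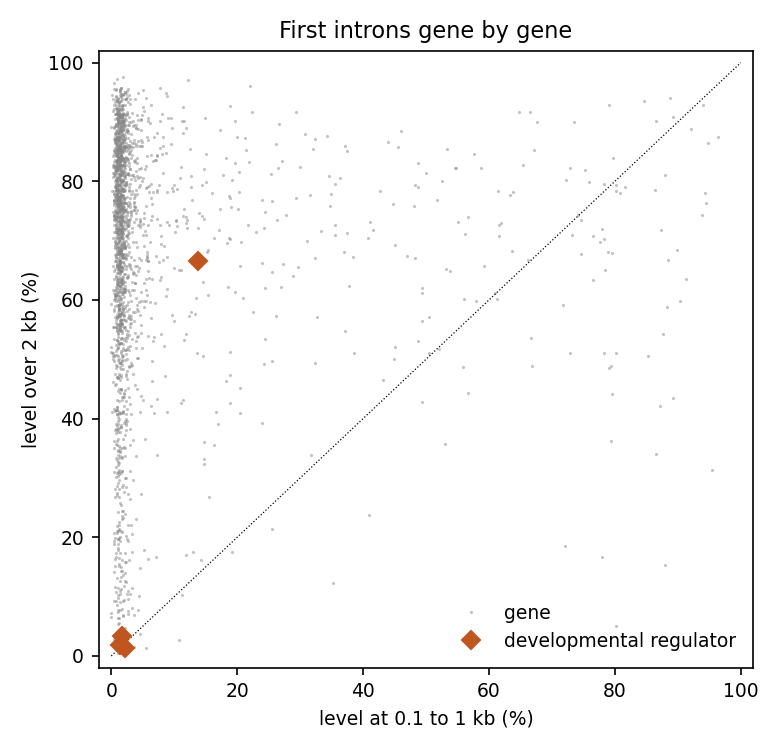
Level at 0.1 to 1 kb (%) against level over 2 kb (%) of the first intron in 2114 genes with at least 5 cytosines in each part (mean of the 8 pools); diamonds are the 4 developmental regulators of the list with enough cytosines and the dotted line marks equal levels. Of the genes 2033 lie above the line, and 131 have both levels under 20%.

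The largest falls by these distances were in Urad, Spi1, Nr1i2 and Rbpj. In Urad the near stretch, 10 cytosines, had 78.3%, 84.1%, 78.3% and 77.1% in the control pools and 79%, 80%, 85.9% and 78.4% in the arsenic pools. Its distant stretch, 40 cytosines, had 5.70%, 5.43%, 4.88% and 5.85% in the control pools and 5.62%, 3.43%, 5.95% and 2.89% in the arsenic pools. Both groups thus shared the reversed order, and their values overlapped in each stretch. Nr1i2, the xenobiotic receptor PXR, went from 87.2% to 42.2%. Spi1, the transcription factor PU.1 of myeloid and B cells, had 88.5% near and 26.4% in its distant stretch, but these were counted from different TSSs. On the plus strand its distant cytosines (chr2:91089878-91090323) lie upstream of the near ones (chr2:91097195-91097307). Both lie in the longer first intron, chr2:91082524-91099429, along which the level was thus higher downstream. Rbpj, the DNA-binding partner of Notch, had 79.4% near and 36.3% in its distant stretch. Its near cytosines were not all counted from the same TSS, and the distant ones lay at a median of 2516 bases from another curated TSS.

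Methylated near stretches were uncommon. Of 4136 genes with at least 10 cytosines at 0.1 to 1 kb, 3485 (84.3%) had a level under 5% there and 128 (3.09%) a level of at least 50%. The highest were Ccdc162 with 94.0%, 4930519L02Rik with 92.8%, Tox2, a high mobility group factor, with 92.1%, and Lcat, the plasma enzyme that esterifies cholesterol, with 90.3%. In 4930519L02Rik all 13 cytosines were in soft-masked, repetitive sequence, and in the other three none was. Unmethylated distant stretches were rarer. Of 1332 genes with at least 10 cytosines over 20 kb, 16 had a level under 20% and 1209 one of at least 50%, with a median of 74.4%. The lowest were Agap3 with 0.996% over 46 cytosines, Cpeb3, a regulator of translation, with 2.36% over 12, Hoxd3, a homeobox gene of axial patterning, with 5.91% over 216, and Tex14, a protein of germ cell bridges, with 7.13% over 24. In Agap3 33 of the 46 cytosines, in Cpeb3 11 of 12 and in Tex14 all 24 lay in an exon or promoter of a predicted transcript, and in Hoxd3 none did. The median distance to the nearest TSS of any curated or predicted transcript was 11785 bases in Hoxd3, and it was 1030 bases in Agap3, 1527 in Cpeb3 and 339 in Tex14.

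Gene groups of the testis and of development were read in the same way. Over all genes with at least 5 cytosines in a stretch, the median level was 1.67% at 0.1 to 1 kb (5804 genes, 4643 under 5%) and 73.9% over 2 kb (4608 genes). Of 20 spermatogonial genes, 14 had a member cytosine, 8 of 10 measured near stretches were under 5%, and the median over 2 kb was 41.8% in 6 genes. Foxo1, a transcription factor of stem cell maintenance, had 1.11% at 1 to 2 kb and 64.9% over 2 kb, and Kit, the receptor of differentiating spermatogonia, had 1.52% at 0.1 to 1 kb, where all 28 cytosines lie in an exon or promoter of a predicted transcript, and 79.6% over 2 kb. Zbtb16, the stem cell repressor PLZF, stayed at 1.08% and 1.71% up to 2 kb, and Itga6, which encodes the integrin CD49f used to isolate the cells, went from 1.08% through 8.47% at 1 to 2 kb to 34.7% over 2 kb. The near stretches not under 5% were those of Stra8 with 87.4% and Sohlh2 with 89.9%, named after their values were seen. In Stra8 the 4 control pools had a mean of 87.2% ± 3.99 and the 4 arsenic pools 87.6% ± 4.09 (SD).

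Developmental regulators, transcription factors that pattern the embryo, had low levels far into the intron. Of the 20 on the list, 17 had a member cytosine, 6 of 8 near stretches were under 5%, and the median over 2 kb was 3.46% in 12 genes. Pax2, a paired-box factor of kidney and eye, had 3.49% over 157 cytosines beyond 2 kb, and Lhx2, a LIM homeobox factor, had 1.89% over 75. All 75 of the Lhx2 cytosines lie in an exon or promoter of a predicted transcript, at a median of 3217 bases from the nearest curated TSS. Prdm16 with 66.2% over 266 cytosines and Foxp1 with 66.5% over 190, both transcription factors as well, were close to the median of all genes. The same held in both groups, with Pax2 at 3.72% ± 0.384 in control and 3.26% ± 0.324 in arsenic pools (SD, n = 4).

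Of 9 genes of DNA methylation enzymes, 6 had a member cytosine, and the 4 near stretches measured were all under 5%. The median over 2 kb was 74.4% in 5 genes. Tet1, which oxidises methylcytosine, rose from 0.968% at 0.1 to 1 kb through 14.8% at 1 to 2 kb to 74.4% over 2 kb, and Dnmt3b, a de novo methyltransferase, from 2.01% through 25% to 82.5%. Dnmt1, the maintenance methyltransferase, which has another TSS in oocytes, had 77.0% at 1 to 2 kb. Of 16 genes of the arsenic and oxidative stress response, 11 had a member cytosine, with a median of 1.44% near (7 of 7 under 5%) and of 75.7% over 2 kb in 6 genes. Txnrd1, thioredoxin reductase, had 79.3% over 2 kb, and Gsr, glutathione reductase, went from 0.831% at 0.1 to 1 kb to 72.1% over 2 kb. Of 16 broadly expressed genes, 10 of 10 near stretches were under 5%, with a median of 1.39%. Their 1 distant stretch, that of Ywhaz, a 14-3-3 adaptor protein, had 11.8%.

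Of 14 genes of Sertoli and Leydig cells, 8 had a member cytosine and 3 of 4 near stretches were under 5%. The median over 2 kb was 2.82% in 4 genes. Over 2 kb, Wt1, a zinc finger factor of Sertoli cells, had 2.78% and Gata4, which both somatic cell types express, had 0.502%, while Fshr, the receptor of follicle-stimulating hormone in Sertoli cells, had 94.2%. Among 14 imprinted genes, 11 had a member cytosine and 3 of 6 near stretches were under 5%. Intermediate levels occurred in Snrpn, an RNA-processing protein, with 52.6% at 0.1 to 1 kb (chr7:60004712-60004901) and 52.1% at 1 to 2 kb (chr7:60169423-60169637). Grb10, an adaptor of insulin receptor signalling, had 2.72% at 0.1 to 1 kb (chr11:12037131-12037179) and 60.1% at 1 to 2 kb (chr11:12026050-12026881). In each of these genes both stretches were counted from different TSSs and are not a profile along 1 intron. Impact had 50.2% at 1 to 2 kb, and Gnas had 74.3% over 2 kb. The SD for Snrpn near the TSS was 13.9 points in the control and 11 in the arsenic pools.

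The arsenic comparison asks whether gestational exposure left a difference in these introns at postnatal day 6. Over all members the control pools had levels of 40.01%, 40%, 39.97% and 39.83% and the arsenic pools 39.84%, 39.54%, 39.35% and 39.57%. The groups overlapped by 1 pair, since arsenic pool 1 lay just above control pool 4. The means were 39.95% ± 0.0844 and 39.58% ± 0.200 (SD, n = 4), a difference of -0.378 points, which did not pass the test (two-sided exact permutation test over the 70 assignments, p = 0.0571; the smallest p that 4 against 4 can give is 0.0286). The promoters used to check the cells overlapped between the groups too, with means of 54.3% in control and 52.5% in arsenic pools for the imprinted list and 84% and 84.2% for the germline list. Without arsenic pool 1 the difference in first introns was -0.465 points with p = 0.0286 in the same exact test. Over all 2130064 cytosines, first introns included, the difference was -0.311 points. There every arsenic pool lay below every control pool (exact permutation test, p = 0.0286), so a lower level was not confined to introns.

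Along the intron the lower level of the arsenic pools was found beyond 2 kb. At 2 to 5 kb the control pools had 55.59%, 55.70%, 55.35% and 55.22%, and the arsenic pools had 55.19%, 54.78%, 54.59% and 54.85%. At 20 to 50 kb the values were 69.77%, 69.81%, 69.61% and 69.47% against 69.34%, 68.89%, 68.78% and 69.12%. Every arsenic pool lay below every control pool in both stretches. The difference was -0.613 points at 2 to 5 kb, -0.604 at 5 to 10 kb, -0.611 at 10 to 20 kb, -0.634 at 20 to 50 kb and -0.479 over 50 kb (exact permutation test, p = 0.0286 and adjusted p = 0.0458 over the 8 bins in each of the 5). Closer to the TSS the groups overlapped, with -0.125 points at 0.1 to 0.5 kb, -0.0957 at 0.5 to 1 kb and -0.264 at 1 to 2 kb (adjusted p = 0.327, 0.486 and 0.152 in the same exact test). The 5 distant bins passed by a small margin, and none passed when each read rather than each cytosine weighed the same (differences of -0.498 to -0.887 points, adjusted p = 0.152 to 0.183). With at least 20 reads in every pool, and also with each gene weighing the same, the adjusted p was 0.0571 to 0.0914 (exact permutation test).

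**Figure D4:**
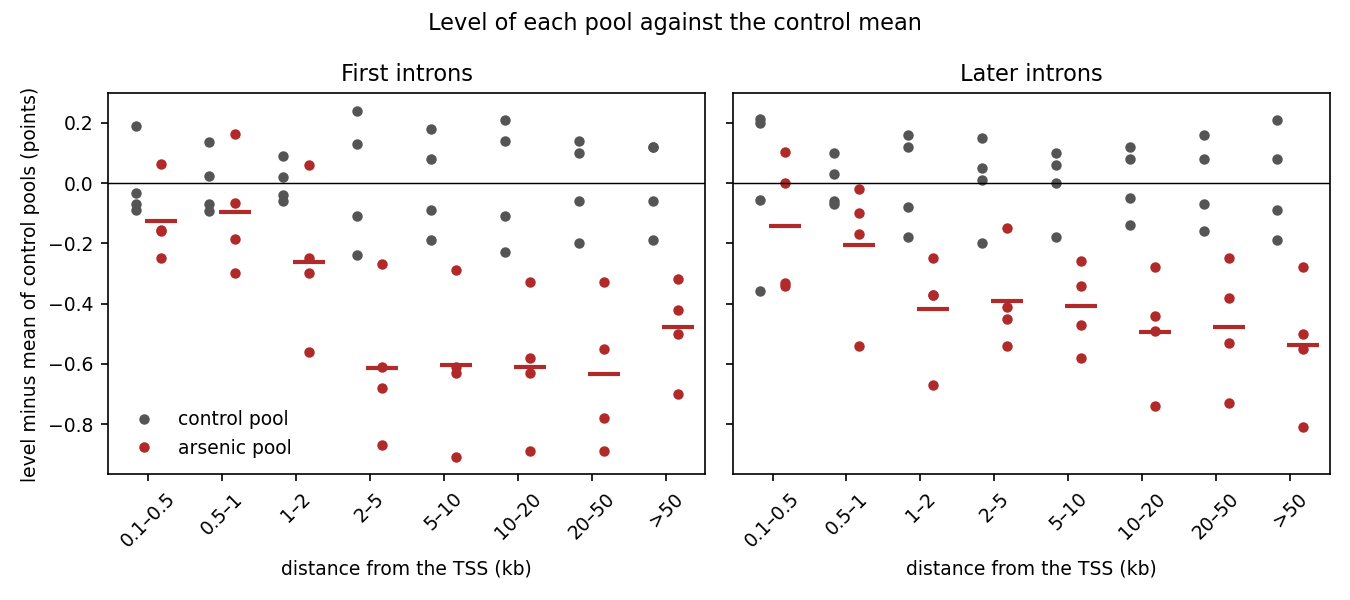
Level of each pool minus the mean of the 4 control pools (percentage points) by distance from the TSS (kb), for first introns (left) and later introns (right); grey points are control pools, red points arsenic pools and red bars their means. In first introns all red points lie below all grey points in the 5 bins beyond 2 kb and overlap them in the 3 bins closer to the TSS.

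The cytosines beyond 2 kb, 52.6% of the members, held 82.0% of the summed difference. The near part, 0.1 to 2 kb, differed by -0.143 points (exact permutation test, p = 0.229) and the part over 10 kb by -0.578 points (p = 0.0286). The contrast of both parts, near minus far, was -59.74, -59.75, -59.34 and -59.38 points in the control pools and -59.13, -59.05, -59.06 and -59.23 in the arsenic pools. The arsenic pools were all closer to 0, by 0.434 points (exact permutation test, p = 0.0286). This contrast also did not pass with each read weighing the same (0.323 points, exact permutation test, p = 0.171). In later introns the arsenic pools were lower as well, by -0.493 points over all their cytosines. With later introns weighted to the distances of first introns, the difference of the differences was -0.0277 points (exact permutation test, p = 0.657), so a lower level particular to first introns was not found. Beyond 10 kb, without that weighting, it was -0.0638 points with every arsenic pool below every control pool (exact permutation test, p = 0.0286), and no single distance bin passed after adjustment (lowest adjusted p = 0.114).

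First introns of at least 5 kb were divided by their length into 10 equal parts, and shorter ones were left out. The first part held 81068 members at a control level of 14.0% and differed by -0.213 points (exact permutation test, adjusted p = 0.114). The second differed by -0.498 points (adjusted p = 0.0634). The third to the last part differed by -0.494 to -0.713 points, each with all arsenic pools below all control pools (adjusted p = 0.0358). The difference did not grow or shrink toward the end of the intron in an ordered way. In first introns of any length the difference was small within 500 bases of the splice donor. It was -0.141 points in the first 200 bases and -0.0869 in the next stretch up to 500 bases, and both groups overlapped.

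Among cytosines over 2 kb from the TSS, the difference was -0.693 points with under 5 CpGs in 200 bases (control 70.4% ± 0.244, arsenic 69.7% ± 0.25) and -0.534 with 5 to 9 (66.6% ± 0.147 and 66.1% ± 0.205), with adjusted p = 0.0429 in the exact permutation test for each. With at least 10 CpGs it was -0.156 points (40.1% ± 0.197 and 39.95% ± 0.203, adjusted p = 0.286). The difference was also read by the level of the cytosines. At a mean level of 20 to 80% the control pools had 59.04%, 58.87%, 58.57% and 58.29% and the arsenic pools 58.06%, 57.55%, 57.28% and 57.78%, a difference of -1.02 points. At 5 to 20% the difference was -1.68 points, with 14.01%, 14.41%, 12.85% and 12.55% in the control pools and 12.13%, 11.65%, 11.48% and 11.86% in the arsenic pools. The groups did not overlap in either class, but the adjusted p over the 5 level classes was 0.0715 (exact permutation test). At 80 to 95% the difference was -0.208 points and at 95% or more -0.131 points, with overlap. Within 2 kb of the TSS, cytosines of 20 to 80% differed by -0.453 points and the groups overlapped (adjusted p = 0.357), so the near part showed a smaller value at this level too, a contrast that was not tested itself.

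Both strands gave the same value beyond 2 kb, -0.591 points for cytosines on the strand of the gene and -0.587 for the opposite strand. Soft-masked sequence, mostly repeats, differed by -0.346 points from a control level of 79.9% ± 0.122, and the remaining sequence by -0.638 points from 63.95% ± 0.209 (adjusted p = 0.0571 for each in the exact permutation test, with overlap only in the soft-masked sequence). All 19 autosomes had the lower mean in the arsenic group, and 12 of them passed (adjusted p = 0.0453). Introns under 1 kb differed by -0.0733 points and introns of 1 to 3 kb by -0.120. Those of 3 to 10 kb differed by -0.303, of 10 to 50 kb by -0.494 and over 50 kb by -0.439 points, each with all arsenic pools lower (adjusted p = 0.0477).

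Single cytosines were called differentially methylated (DMCs) by a likelihood-ratio test on the counts pooled by group, at q of at most 0.01 and a difference of at least 10 points. In first introns 1300 of 291813 cytosines were called (0.445%), against 0.552% of all cytosines. Of these 835 were lower in the arsenic group (hypoDMCs, background 0.323% of all cytosines) and 465 were higher (hyperDMCs, background 0.228%). DMCs were sparse close to the TSS, with 0.184% at 0.1 to 0.5 kb, and reached 0.695% at 20 to 50 kb. Within 2 kb 301 were called (0.218%), 55.8% of them hypoDMCs, and beyond 2 kb 999 (0.651%), 66.8% of them hypoDMCs. Over all cytosines 58.6% of the DMCs were hypoDMCs. In later introns 0.415% were called within 2 kb, 74% of them hypoDMCs, and 0.586% beyond 2 kb, 63.1% of them hypoDMCs. In first introns the share of hypoDMCs within 2 kb ran from 47.2% to 66.3% when 1 pool was left out. It was above the share beyond 2 kb without control pool 1 (66.3% and 61.4%) and without control pool 2 (63.8% and 63.5%). An unmethylated cytosine cannot lose 10 points, so cytosines of 20 to 80% were also read alone, and there the share was 0.689% within 2 kb, 0.926% beyond 2 kb and 0.948% over all cytosines.

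**Figure D5:**
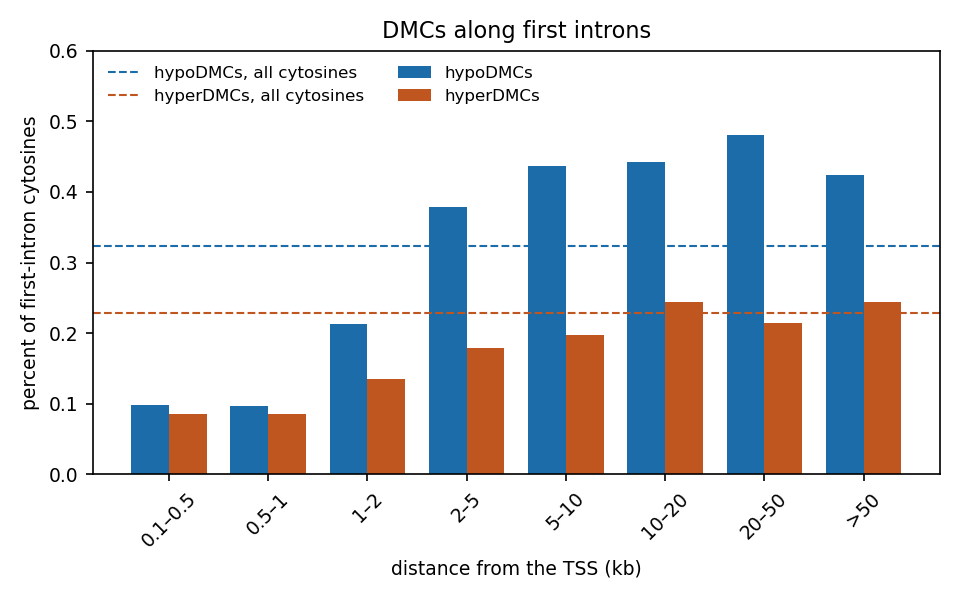
HypoDMCs (blue bars) and hyperDMCs (orange bars) as percent of first-intron cytosines by distance from the TSS (kb); dashed lines are the shares over all cytosines, 0.323% and 0.228%. HypoDMCs rise from 0.0978% at 0.1 to 0.5 kb to 0.481% at 20 to 50 kb and hyperDMCs from 0.0860% to 0.214%.

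The DMCs were spread over 980 genes, 775 of them with 1 and 74 with at least 3. Kcnip1, a potassium channel-interacting protein, and Map3k1, a MAP kinase kinase kinase, had 7 each. The median difference was -15.7 points for hypoDMCs and 15.6 for hyperDMCs. These calls treat the reads of a group as 1 library. The variance between pools was compared with the counting error that independent reads would give. It was 1.37 times that error in the median first-intron cytosine and 2.18 times in the median DMC. With that variance in an F test 0 of the 1300 calls were left, and 0 of all cytosines were called. Of the first-intron cytosines 11279 had an unadjusted p under 0.05 in that test. With every count halved, an alternative chosen after the excess of even counts was seen, 0 were left in first introns and 15 over all cytosines. Of the first-intron cytosines 15850 then had an unadjusted p under 0.05. How many of all cytosines had such an unadjusted p was not counted in either test, so the counts at that p have no background.

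Stretches of introns were tested with the spread between pools. A segment was the part of a gene's first introns within a distance bin, with at least 5 cytosines, and the counts of a segment were summed and tested by logistic regression with overdispersion and an F test across all 123446 autosomal segments. Of 16624 first-intron segments 0 were called at an adjusted p of 0.05 (background 0%), with 898 at an unadjusted p under 0.05, 644 lower and 254 higher in the arsenic group. Over all 123446 segments 6086 had such an unadjusted p, 4068 lower and 2018 higher. limma called 0 too, with 1037 of the first-intron segments and 6725 of all 123446 segments at an unadjusted p under 0.05. Every arsenic pool was below every control pool in 373 first-intron segments (2.24%, background 2.14%) and above in 166 (0.999%, background 1.09%), shares near those of all segments. Beyond 2 kb the shares were 2.97% lower and 0.844% higher, and within 2 kb 1.64% and 1.13%. The median difference was -0.501 points beyond 2 kb and -0.0921 points within.

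The segments with the lowest p among those whose groups did not overlap are given as values, since none passed the adjustment (F test with Benjamini-Hochberg adjustment over all segments, adjusted p = 0.942 for each). In Gcgr, the glucagon receptor, 11 cytosines at 0.1 to 0.5 kb had 8.43%, 7.50%, 7.01% and 3.66% in the control pools and 0.844%, 1.27%, 0.325% and 0.932% in the arsenic pools. In Onecut3, 64 cytosines at 5 to 10 kb had 4.75%, 5.41%, 4.39% and 5.87% against 2.80%, 2.30%, 3.57% and 2.19%. In Pxk, a kinase-like protein with a lipid-binding PX domain, 22 cytosines at 0.1 to 0.5 kb had 5.60%, 7.87%, 4.37% and 8.46% against 0.413%, 0%, 0.379% and 0.891%, and the difference was -6.16 points between these means and -3.14 points on the summed counts that were tested. The arsenic pools were low in all 3, from control levels under 10%, and Pxk alone of the 3 held DMCs, 5 of them.

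The segments with higher arsenic pools by the same ranking were in Ncam1, Cd79b and Tmcc2. In Ncam1, a neural cell adhesion molecule, 23 cytosines at 0.5 to 1 kb had 0.362%, 0.593%, 1.06% and 0.567% in the control pools and 2.17%, 1.77%, 2.58% and 2.14% in the arsenic pools. In Cd79b, a subunit of the B cell receptor, 5 cytosines at 0.5 to 1 kb had 61.2%, 56.4%, 55.0% and 60.3% against 76.1%, 75.8%, 67.4% and 69.1%. In Tmcc2, a transmembrane coiled-coil protein, 17 cytosines at 5 to 10 kb had 72.4%, 70.9%, 70.9% and 72.1% against 75.9%, 73.2%, 75.7% and 76.7%. Cd79b had the largest difference of the 6 segments, 13.9 points on 160 to 213 reads per pool, and the others were between -6.16 and 3.82 points.

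In the gene lists the difference over 2 kb was read beside all 4608 genes with at least 5 cytosines there, of which 2960 were lower and 1648 higher in the arsenic group, with a median of -0.540 points. Spermatogonial genes had 5 lower and 1 higher with a median of -0.579 points, and DNA methylation enzymes 3 lower and 2 higher with -0.781. Genes of the arsenic and oxidative stress response had 2 lower and 4 higher with 0.447 points, and developmental regulators 7 lower and 5 higher with -0.103. Imprinted genes had 3 lower and 3 higher with 0.164 points, and genes of Sertoli and Leydig cells 1 lower and 3 higher with 0.160. Each list holds 12 distant stretches or fewer, and the directions are given as values, not as calls.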

How the data were processed

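RRBS was performed by the authors on cells isolated as type A spermatogonia, in 4 control and 4 arsenic pools. Per the submitters' processing notes, Trim Galore 0.6.5, Bismark 0.22.3 and methylKit 1.22.0 were used, with mm10 as the genome. The authors' deposited table gives counts of covering, methylated and unmethylated reads per cytosine and strand, without normalization, for cytosines with a coverage of at least 10 in all 8 samples. Position was taken from curated RefSeq transcripts on GRCm38, which is mm10, and the distance is that to the start of the transcript whose first intron holds the cytosine. The values used here are levels computed from those counts. Members, gene lists and tests were chosen with earlier results of these data known.

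Levels were compared with exact permutation tests over pools and Benjamini-Hochberg adjustment. DMCs follow the authors' thresholds; methylKit itself was not run. Segments held at least 5 cytosines, and cytosines outside introns entered as 1 kb windows. Each test across many features was tested on simulated data first. Named genes are the 3 lower and 3 higher segments with the lowest q among those without overlap, the 4 largest rises and falls, the 4 highest near and 4 lowest distant levels, and the list members with the most cytosines. Exceptions are marked in the text, apart from Dnmt1, Gata4 and Snrpn. Dnmt1 (31 member cytosines) was described although Tet2 held 53, and Gata4 (38) although Clu held 43. Snrpn (33) was described at length although Gnas held 42 and Impact 37. Same-numbered pools did not vary together (correlations of their deviations from the group means from -0.0043 to 0.00555), so numbers were not taken as pairs. The chi-square between 2 pools was 1.95 to 2.06 per cytosine in every pair, so no pair stood apart and all 8 were counted as separate samples. Were every read counted in a pair, a value near 2 would be counting error alone. In first introns 57.2% of the coverages of 20 to 59 reads were even, so odd counts were common as well. What counting error alone would give in such a table was not tested. The tools were limma 3.58.1 (pseudocount 1) in R 4.3.3, and scipy 1.17.1, pandas 2.3.3 and numpy 2.4.6 in Python 3.11.15. Alternatives were coverage, weighting, annotation, CpG density, overdispersion, leaving out each pool and a replicate block.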

Additional observations from a re-analysis of the deposited data

Results flagged for a closer look

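Among 96 groups of 4 pools examined, chance gives about 1 flag in 20, that is 4.8, and 4 were found. In the near stretch of Tbc1d20 control pool 3 had 2.84% where the others had 0.489% to 0.575%. In the near stretch of Ccdc162 control pool 3 had 91.2% where the others had 95% to 95.6%. In the near stretch of Rbpj arsenic pool 1 had 82.9% where the others had 77.5% to 78.4%, and in the distant stretch of Nr1i2 arsenic pool 3 had 36.0% where the others had 43.8% to 44.2%. No average over a distance bin had such a pool.

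The arsenic difference differed between the near part (0.1 to 2 kb) and the distant part (over 10 kb) of first introns, by 0.434 points (exact permutation test, p = 0.0286). The level of the cytosines moved along with the distance, and its part in this contrast was not tested. In later introns the difference was also smaller close to the TSS, with -0.143 points at 0.1 to 0.5 kb and -0.207 at 0.5 to 1 kb. In their bins beyond 1 kb it was -0.39 to -0.54 points, and near against far was not tested there.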

How the results depend on the processing

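First introns stayed below later introns at equal distance under all 10 alternatives (-7.10 to -11.9 points) and without any 1 pool (-7.69 to -7.66). The overall arsenic difference was -0.859 points with coverage-weighted levels (exact permutation test, p = 0.229), passed with fewer than 10 CpGs in 200 bases (-0.498 points) and without arsenic pool 1, and ranged from -0.465 to -0.303 points without 1 pool. The count of distance bins passed, 5, was 0 with a coverage of at least 20 or 30, with coverage-weighted levels, with each gene weighing the same and under the replicate block, and 0 to 6 without 1 pool, with 0 without any of the 4 control pools or arsenic pool 3. All 88 bin differences under the alternatives were negative. The arsenic difference in near minus far was 0.323 points and no longer passed with coverage-weighted levels. Under the replicate block it was 0.434 (exact permutation test, p = 0.125, the smallest that 4 pairs can give). It was 0.369 to 0.504 without 1 pool, passing only without a control pool. The arsenic difference in first minus later introns reversed without control pool 1 (0.0134 points). It ranged from -0.0505 to 0.0134 points without 1 pool and passed in none. DMCs in first introns, 1300 of 11752 over all cytosines in the main setting, numbered 342 of 3141 at 20 points. They were 0 with overdispersion, where 0 of all cytosines were called, and 0 of 15 with halved counts. Under the replicate block they were 919 of 8035. Without 1 pool they numbered 1266 to 1467, with 11533 to 13107 over all cytosines. First-intron segments called stayed at 0 throughout. At an unadjusted p under 0.05 they ran from 474 of 8839 whole first introns to 1050 of 20361 segments with at least 3 cytosines. The main setting had 898 of 16624, beside 6086 of all 123446 segments. Under the alternatives other than limma the number over all segments was not counted. The causes were not tested. Replicate numbers paired no samples. Coverage of 31 to 43 reads leaves single cytosines imprecise, and differences under about 1 point are visible only in averages over many cytosines.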
